A study of Mus musculus with 124 samples.

Results

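The liver of undisturbed mice was compared at dusk and at dawn. Dusk is zeitgeber time 12 (ZT12), when the lights go off in a cycle of 12 h light and 12 h dark, and dawn is ZT0, when they come on. All liver libraries of control mice labelled ZT12 (5 libraries) or ZT0 (8 libraries) were taken, which makes 13 of the 124 samples of the series and 13 of its 62 liver libraries. Every library came from a mouse of its own, and each mouse was killed at 1 time. The mice were about 11 to 12 weeks old, had food at all times and had been given a week to settle into the setting. None of them was sleep deprived. Before collection the mice were put under isoflurane. The labels name no genotype or transgene for any group, and no source used here gives strain or sex. Livers were frozen whole, so the values mix all cell types of the organ. Mouse batches 1 and 2 of the labels held 3 and 2 of the ZT12 mice and 4 and 4 of the ZT0 mice. Of the ZT0 mice, 4 carry the time label 0 and 4 the time label 24, while their animal names begin with T0 or J70 under both labels. Elsewhere in the series, mice were kept awake by handling for 6 h from light onset and followed for days, with matched controls, in liver and cortex.

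A liver cell keeps time with a transcriptional feedback loop. The activators CLOCK or NPAS2, each paired with BMAL1 (gene Arntl), bind E-boxes and switch on the Per and Cry genes, whose proteins then shut the activators off. A further loop runs through REV-ERB repressors (Nr1d1, Nr1d2) and ROR activators, which compete for ROR elements in the promoter of Arntl, and a 3rd arm through PAR bZIP proteins such as DBP, which bind D-boxes. In the liver this loop is joined by feeding, body temperature and glucocorticoid hormone, which peaks in nocturnal rodents around dusk, and together they time the synthesis of fat, glucose, bile acid and haem. ZT12 is the end of the rest phase of a mouse and ZT0 the end of its active and feeding phase.

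The motifs of these 3 arms stood in the promoters of some clock genes, and 5 of these promoters are printed. Each of the 5 holds a match, so they are examples and do not stand for the clock genes as a group. Windows of Cry1, Tef and Bhlhe41 held an E-box too and are not printed, and of these genes Cry1 had the lower mean at dusk. They are RefSeq promoter sequences of GRCm38.p6, from 250 bases before the transcription start to 50 bases after it, 5′ to 3′ on the strand of the gene. Capitals mark the E-box (CACGTG), the D-box (TTANGTAA) and the ROR element (TAGGTCA), each searched on both strands, so that a ROR element on the other strand is printed as its reverse complement. The motifs were searched separately, and a base could belong to more than 1 match. Ciart, which codes for a repressor of the clock (chr3:95882179-95882478, minus strand), held 3 E-boxes, Per1 (chr11:69098699-69098998, plus strand) 1 E-box, Per3 (chr4:151044616-151044915, minus strand) 2 D-boxes, and Arntl (chr7:113207261-113207560, plus strand) and Nfil3 (chr13:52980990-52981289, minus strand) 1 ROR element each. The table lists a further start for Per1 and for Arntl, and none of the letters stood in those windows.
Ciart: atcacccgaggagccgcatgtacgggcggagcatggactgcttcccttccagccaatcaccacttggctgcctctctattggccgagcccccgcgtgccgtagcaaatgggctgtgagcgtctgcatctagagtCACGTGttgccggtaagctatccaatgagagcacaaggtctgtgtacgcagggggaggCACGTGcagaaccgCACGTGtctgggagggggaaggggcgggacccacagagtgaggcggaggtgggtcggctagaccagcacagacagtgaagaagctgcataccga
Per1: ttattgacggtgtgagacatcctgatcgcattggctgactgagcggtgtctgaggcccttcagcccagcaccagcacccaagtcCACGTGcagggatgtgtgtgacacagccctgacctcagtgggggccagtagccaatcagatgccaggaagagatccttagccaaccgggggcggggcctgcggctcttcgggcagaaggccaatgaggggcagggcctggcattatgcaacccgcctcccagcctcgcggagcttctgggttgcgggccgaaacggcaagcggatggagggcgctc
Per3: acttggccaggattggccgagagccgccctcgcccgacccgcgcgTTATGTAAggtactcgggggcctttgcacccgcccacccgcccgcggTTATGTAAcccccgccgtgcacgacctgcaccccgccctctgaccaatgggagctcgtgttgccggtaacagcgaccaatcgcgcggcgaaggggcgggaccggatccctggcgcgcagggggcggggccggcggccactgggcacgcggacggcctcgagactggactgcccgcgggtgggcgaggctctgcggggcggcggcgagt
Arntl: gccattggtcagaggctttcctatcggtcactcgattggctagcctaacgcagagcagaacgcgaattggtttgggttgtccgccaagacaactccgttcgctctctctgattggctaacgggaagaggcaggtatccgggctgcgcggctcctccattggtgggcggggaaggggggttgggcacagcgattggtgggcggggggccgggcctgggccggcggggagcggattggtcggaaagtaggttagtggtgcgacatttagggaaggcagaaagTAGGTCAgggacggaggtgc
Nfil3: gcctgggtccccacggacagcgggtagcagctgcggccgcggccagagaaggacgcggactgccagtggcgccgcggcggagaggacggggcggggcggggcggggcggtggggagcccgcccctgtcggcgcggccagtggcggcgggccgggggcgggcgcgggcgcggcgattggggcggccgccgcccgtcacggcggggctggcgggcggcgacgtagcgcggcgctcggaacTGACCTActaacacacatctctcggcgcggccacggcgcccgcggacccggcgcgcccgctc

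The values are log2 CPM, read counts scaled to the size of each library, as the authors deposited them, and a difference of 1 on this scale is a 2-fold difference. The table gives no read counts, which leaves the depth of single values unknown. Antilogs summed to between 983601 and 1070244 CPM in ZT12 libraries and to between 922501 and 984884 CPM in ZT0 libraries. Each of the 13 libraries correlated better with its own group (mean Pearson r across genes 0.977 to 0.988) than with the other group (0.961 to 0.972). The ZT12 library T12N1 and the ZT0 library T0N3 were the least like their groups. The authors had removed an unlabelled 3-level factor within groups before deposit. Its smaller levels hold 4 of the 8 ZT0 libraries, while the 5 ZT12 libraries share 1 level that the values do not identify. The p-values given here are somewhat too small. Wherever this factor is a covariate, it took the place of the mouse batch of the main fit, and the ZT12 libraries were put in its largest level. Of the named genes that passed, Cry1 and Stard4 did not pass in that fit. Counts over gene lists are given with the factor where that fit moved them by over 1.5 times. The albumin transcript Alb, the defining product of hepatocytes, was the most abundant named here, at a mean of 16.44 ± 0.13 log2 CPM at ZT12 and 16.07 ± 0.16 at ZT0 (SD, n = 5 and 8). Summed CPM of the 10 hepatocyte markers, most of it Alb, ran from 109554 to 134193 at ZT12 and from 92583 to 111237 at ZT0. Of these markers 5 were higher at ZT12 and 1 lower (median 0.29), 60% against 32.7% over all genes.

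A large part of the measured liver transcriptome differed between dusk and dawn. Of 13338 named genes, 4361 (32.7%) passed an adjusted p of 0.05 in the limma fit with Benjamini-Hochberg adjustment, 2130 of them higher at ZT12 (16%) and 2231 lower (16.7%). Most of these differences were small, with a median of 0.40 (log2) among the genes higher at ZT12 and -0.49 among those lower. More than 2-fold differences were called for 560 genes (4.2%), 251 higher and 309 lower, and 103 of them were gene models (numbered names), which are counted here and not named. Within the mouse batches the counts were 2560 calls in batch 1 alone and 2758 in batch 2 alone, with 607 and 622 of them over 2-fold. Over 4-fold were 66 higher and 55 lower genes, and over 8-fold 32 genes in all. The ranges of the groups did not overlap for 1807 genes (13.5%), which includes 416 of the 560 genes that differed over 2-fold. Over all genes the median difference was -0.01.

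The repressor arm of the clock was high at dusk and the activators were high at dawn. Among the 10 repressor genes, 9 were higher at ZT12 and 1 lower, with a median difference of 2.40, and among the 4 activator genes reported 0 were higher and 3 lower, with a median of -2.79. Both medians stand beside the -0.01 over all genes, and the shares called, 100% and 75%, beside 32.7%. These lists and the clock genes were chosen with earlier results of these data known, so their counts describe the arms and are not independent evidence of them.

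Ciart (chr3:95878503-95882251) had the largest difference of any named gene that was higher at dusk. It stood at 5.48, 5.06, 5.22, 4.17 and 5.06 log2 CPM in ZT12 livers, against a lowest value of -2.75, a median of -1.42 and a highest value of -0.01 in ZT0 livers. The groups lay more than 4 log2 units apart at their nearest libraries. The difference was 6.39 ± 0.39 (SE), or 83.7-fold (adjusted p = 6.64e-19). Per1 (chr11:69095217-69109960), a light- and hormone-responsive period gene, had 5.77, 5.93, 5.88, 5.15 and 5.76 log2 CPM at ZT12, against 0.35, 1.45 and 2.30 (lowest, median, highest) at ZT0. Every ZT12 library lay far above every ZT0 library, and the difference was 4.28 ± 0.36 (adjusted p = 7.55e-14). Per3 (chr4:151003652-151044665), whose promoter held the D-boxes shown above, had 6.05, 5.84, 6.04, 5.61 and 5.25 log2 CPM at ZT12, against 0.90, 1.20 and 1.62 at ZT0. Its difference was 4.48 ± 0.20 (adjusted p = 1e-23), and its libraries were tightly grouped at both times. Per2 (chr1:91415982-91459324), a period gene that also follows signals from outside the cell, had 6.72, 6.42, 6.36, 6.47 and 6.30 log2 CPM at ZT12, against 3.68, 3.90 and 4.36 at ZT0, a difference of 2.47 ± 0.23 (adjusted p = 2.42e-12).

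The REV-ERB genes code for haem-binding repressors of Arntl. Nr1d2 (chr14:18204054-18239127) had 6.59, 6.77, 6.96, 6.59 and 6.35 log2 CPM at ZT12, against 3.60, 4.09 and 4.99 at ZT0. Here, too, the groups did not overlap, and the difference was 2.36 ± 0.19 (adjusted p = 2.23e-14). Nr1d1 (chr11:98767932-98775333) had 4.55, 4.50, 4.82, 4.43 and 4.31 log2 CPM at ZT12, against 2.03, 2.96 and 5.25 at ZT0. Its ZT12 libraries were close together while 3 of its 8 ZT0 libraries were as high as them, so the groups overlapped. The difference of 1.16 ± 0.40 passed the test (adjusted p = 0.0222, and 0.0351 with the removed factor as a covariate), but the ZT0 values had an SD of 1.29, and the call was lost without any 1 of the ZT0 libraries J70N1, J70N2 or T0N3 or the ZT12 library T12N4 (adjusted p = 0.0562, 0.0569, 0.0591 and 0.0506), and in batch 2 alone (0.87, adjusted p = 0.427). Both genes were higher still at ZT6, where Nr1d1 averaged 7.32 and Nr1d2 6.98 log2 CPM.

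The remaining repressors had smaller differences. Cry2 rose by 0.96 ± 0.11 (adjusted p = 1.46e-09), while Cry1, the cryptochrome with the late peak, averaged 4.25 ± 0.35 log2 CPM at ZT12 and 4.70 ± 0.39 at ZT0. The Cry1 difference of -0.46 passed the test (adjusted p = 0.0338) but not with the removed factor as a covariate (adjusted p = 0.0545), and its groups overlapped. It was lost as well without any 1 of J70N1, J70N2, T0N2, T12N4 or T12N5 (adjusted p between 0.0563 and 0.183). The DEC repressor genes, which compete with the activators for E-boxes, were both higher at dusk, Bhlhe40 by 1.30 ± 0.21 and Bhlhe41 by 2.43 ± 0.39 (adjusted p = 2.03e-06 and 1.73e-06).

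Among the activators, Npas2 (chr1:39193731-39363236), the partner of BMAL1 that can stand in for CLOCK, showed the largest difference of all named genes. It had -4.51, -4.51, -4.51, -2.96 and -2.75 log2 CPM at ZT12, against 3.24, 3.57 and 3.93 at ZT0. The equal values in 3 ZT12 libraries are the lowest the gene takes in the liver table, as a library without reads of a gene gets, so the size of the fitted difference, -7.36 ± 0.30 (adjusted p = 3.05e-25), depends on the offset used for the logarithm, which no source used here gives. Arntl (chr7:113207465-113314126) had 1.40, 1.29, -0.26, 2.42 and 1.92 log2 CPM at ZT12, against 5.08, 5.54 and 5.67 at ZT0. Its ZT0 libraries were within 1 log2 unit of each other and all ZT12 libraries were lower, with a difference of -4.10 ± 0.29, or 17.2-fold lower (adjusted p = 1.88e-16). Clock (chr5:76209868-76304792) fell by 1.48 ± 0.14 (adjusted p = 5.65e-12), with non-overlapping groups. Rora, which codes for a ROR activator, had a difference of -0.14 ± 0.13 and did not pass the test (adjusted p = 0.437).

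**Figure D1:**
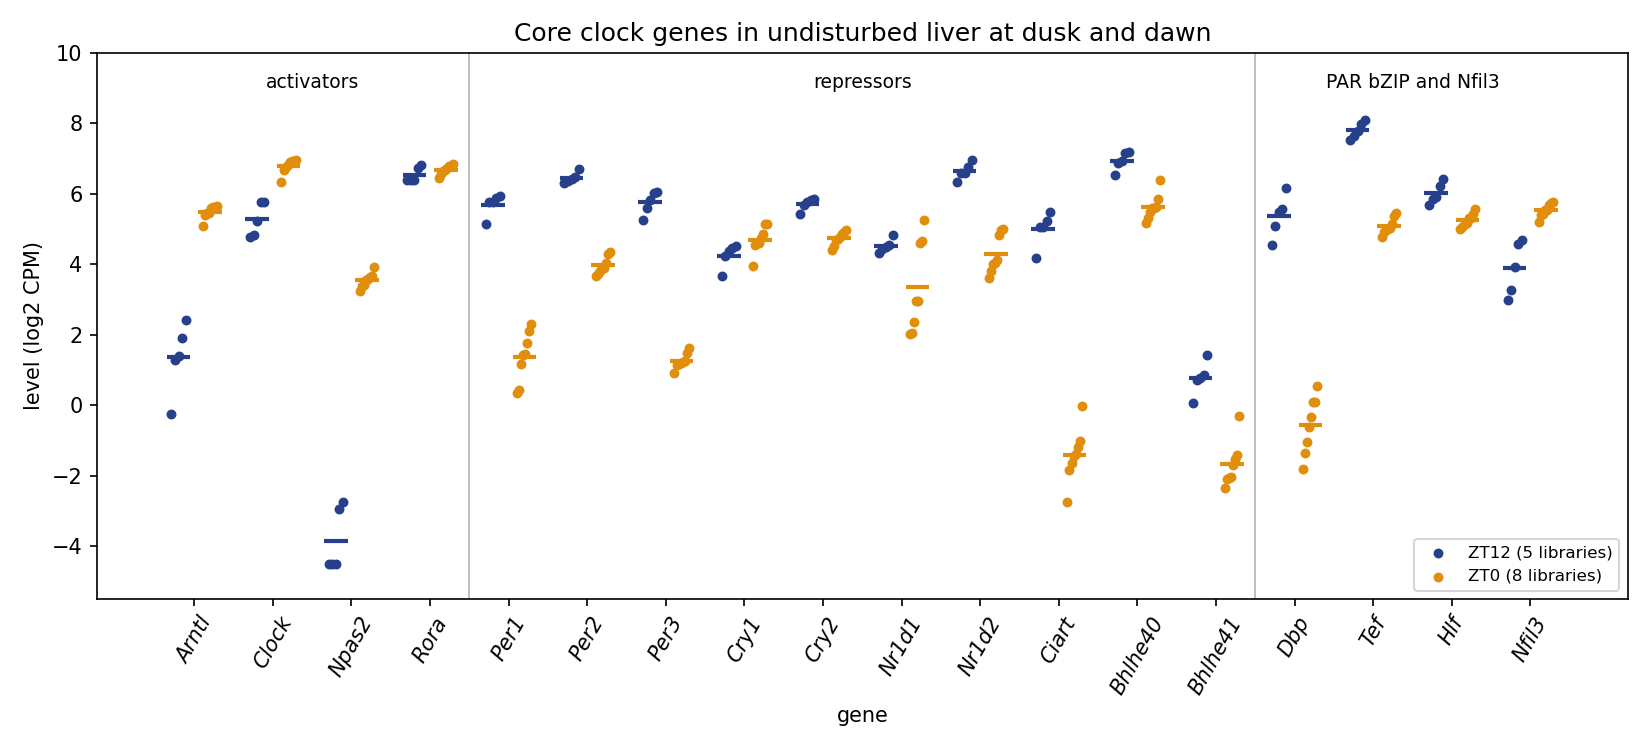
Levels (log2 CPM) of 18 clock genes in the 5 ZT12 libraries (blue, left of each pair) and the 8 ZT0 libraries (orange, right). Points are libraries and bars are group means. Arntl, Clock, Npas2 and Nfil3 lie lower at ZT12, the Per genes, Ciart, Dbp and Tef lie higher, and Nr1d1 overlaps.

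The PAR bZIP genes, which carry the clock to metabolic targets through D-boxes, were all higher at dusk, and their competitor Nfil3 was lower. Dbp (chr7:45705088-45710203) had 5.58, 5.48, 6.17, 5.10 and 4.54 log2 CPM at ZT12, against -1.81, -0.49 and 0.55 at ZT0. The nearest libraries of the groups were almost 4 log2 units apart, and the difference was 5.89 ± 0.32, or 59.3-fold (adjusted p = 7.36e-21). Tef rose by 2.71 ± 0.12 and Hlf by 0.77 ± 0.12 (adjusted p = 1.13e-23 and 2.1e-06). Nfil3, a repressor at D-boxes, had 3.92, 3.28, 2.98, 4.70 and 4.58 log2 CPM at ZT12, against 5.21, 5.55 and 5.78 at ZT0. All its ZT12 libraries were lower (difference -1.63 ± 0.24, adjusted p = 2.99e-07).

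Of 16 known outputs of the liver clock, 13 were higher at ZT12 and 3 lower, with a median difference of 2.04. So 100% of the list passed, against 32.7% of all genes. With the removed factor as a covariate 12 were higher and 3 lower, in either batch alone 10 and 3, and without T12N6 11 and 3. Usp2, which codes for a deubiquitinase, rose by 4.47 ± 0.29 (adjusted p = 1.21e-17). Wee1, a kinase that delays entry into mitosis, rose by 2.92 ± 0.20 (adjusted p = 4.18e-17). Nampt, the rate-limiting enzyme of NAD salvage, had 7.55, 7.56, 7.80, 8.15 and 8.23 log2 CPM at ZT12, against 5.37, 5.75 and 5.85 at ZT0. Its groups did not overlap and it rose by 2.17 ± 0.12 (adjusted p = 2.68e-20). Rgs16, an inhibitor of G protein signalling that is induced in liver by fasting, had 5.02, 5.62, 5.76, 3.79 and 5.49 log2 CPM at ZT12, against -2.99, -0.81 and 1.44 at ZT0, a difference of 5.79 ± 0.54 (adjusted p = 1.42e-12). Por, the reductase that feeds electrons to all microsomal cytochromes P450, rose by 2.36 ± 0.11 (adjusted p = 1.13e-22). On the other side stood Elovl3, which elongates very long fatty acids, with 4.69, 5.16, 4.29, 4.37 and 5.11 log2 CPM at ZT12, against 8.90, 9.49 and 9.70 at ZT0. It was 25.1-fold lower at dusk (difference -4.65 ± 0.23, adjusted p = 1.42e-22).

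**Figure D2:**
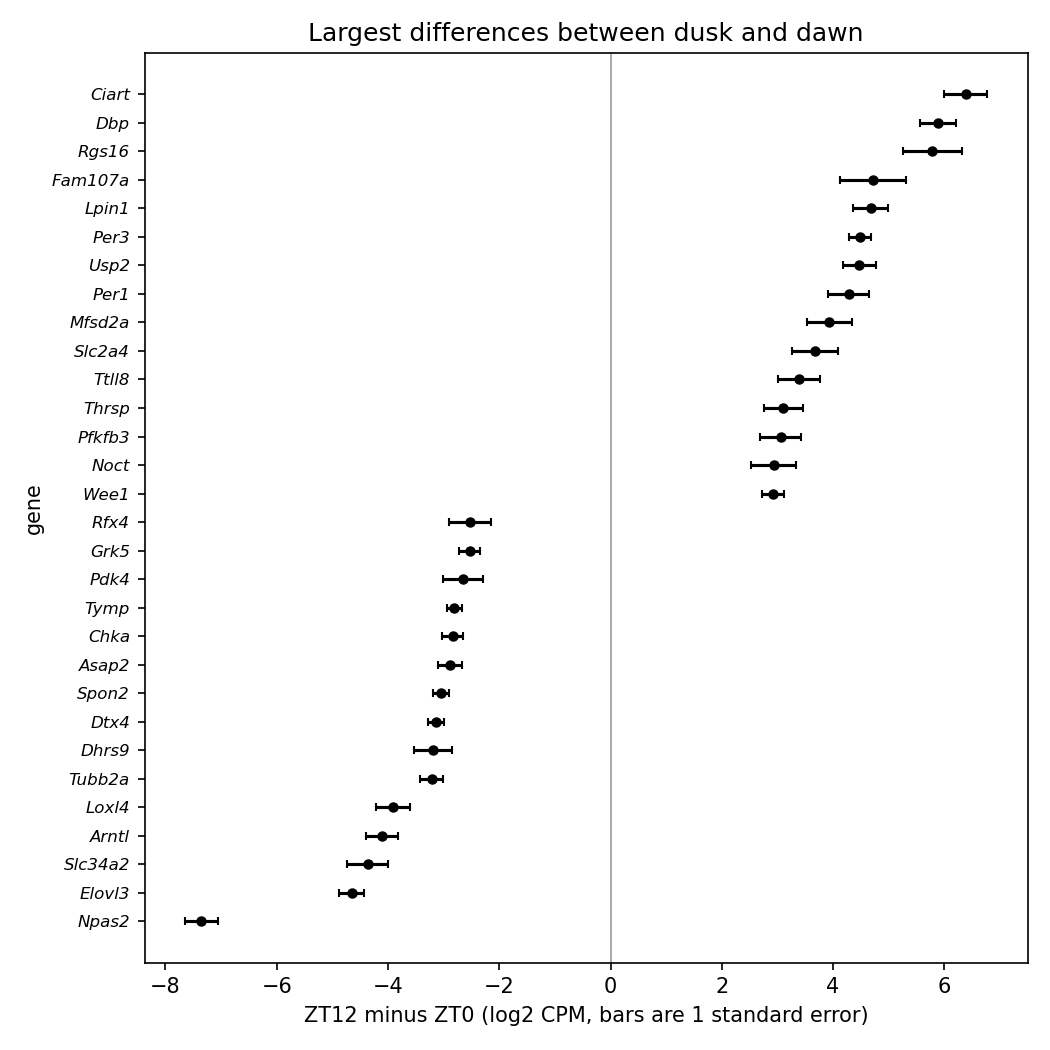
ZT12 minus ZT0 (log2 CPM, bars are 1 standard error) for the 15 genes with the largest differences in each direction among called, non-overlapping genes with a group mean of at least 1 log2 CPM. Ciart, at 6.39, tops the genes higher at dusk, and Npas2, at -7.36, lies lowest.

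Several of the 30 genes with the largest differences are on none of the clock lists. Those higher at dusk include Mfsd2a, a transporter of lysophosphatidylcholine (3.94 ± 0.41), Slc2a4, the insulin-responsive glucose transporter (3.67 ± 0.41), and Noct, a clock-linked phosphatase of NADP(H) (2.93 ± 0.40). Fam107a, a stress- and glucocorticoid-responsive gene in brain, had 2.03, -0.67, 1.76, 2.58 and 3.97 log2 CPM at ZT12, against -4.11, -2.68 and -1.48 at ZT0, and the ZT12 library T12N2 lay well below the other 4, while 1 ZT0 library was at the lowest value the gene takes. Its difference was 4.71 ± 0.59 (adjusted p = 8.76e-09). Those lower at dusk include Tubb2a, a beta-tubulin (-3.22 ± 0.20), Chka, the choline kinase that starts phosphatidylcholine synthesis (-2.83 ± 0.19), Loxl4, a lysyl oxidase relative that crosslinks matrix (-3.91 ± 0.30), Slc34a2, a sodium-phosphate cotransporter (-4.37 ± 0.36), and Tymp, thymidine phosphorylase (-2.81 ± 0.14). Dtx4, an E3 ligase of the Notch pathway (-3.14 ± 0.15), Grk5, a G protein-coupled receptor kinase (-2.53 ± 0.19), and Dhrs9, a retinol dehydrogenase (-3.20 ± 0.34), were lower as well. Adjusted p-values of these genes lay between 4.46e-22 for Tymp and 5.36e-08 for Noct.

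Fat synthesis genes leaned towards dusk. Of the 20 listed genes of fatty acid and triglyceride synthesis, 11 were higher at ZT12 and 2 lower, with a median of 0.66. This is a share of 65% called, against 32.7% over all genes. Lpin1 (chr12:16535669-16610966), a phosphatidate phosphatase that makes diacylglycerol and also acts as a coactivator, had 9.66, 8.74, 9.77, 9.55 and 10.51 log2 CPM at ZT12, against 4.02, 5.11 and 5.40 at ZT0. It was 25.6-fold higher (4.68 ± 0.32, adjusted p = 5.18e-17), and its relative Lpin2 rose by 1.71 ± 0.18. Thrsp (Spot 14), a lipogenic factor, had 11.30, 10.39, 9.78, 10.21 and 10.73 log2 CPM at ZT12, against 6.72, 7.45 and 8.10 at ZT0, a difference of 3.11 ± 0.35 (adjusted p = 4.07e-10). Dgat2, which adds the last acyl chain to triglyceride, rose by 0.62 ± 0.07. Elovl5, which elongates polyunsaturated fatty acids, fell by 1.32 ± 0.14 (adjusted p = 5.43e-11). Batch 1 alone called 10 genes of the list higher and 1 lower (median 0.94), and batch 2 alone 7 and 3 (median 0.31). Summed CPM of the list overlapped, from 14126 to 23823 at ZT12 and from 12181 to 15475 at ZT0. The ZT12 mice of batch 2 had the lowest ZT12 sums.

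Of 28 genes of PPAR alpha and fatty acid oxidation, 7 were higher at ZT12 and 2 lower, with a median of 0.10. The 32.1% that passed stands beside 32.7% over all genes. Angptl4, a secreted inhibitor of lipoprotein lipase, rose by 1.63 ± 0.32, and Cpt1a, the gate for fatty acid entry into mitochondria, by 0.79 ± 0.13 (adjusted p = 5.56e-05 and 1.83e-06). Pdk4, the kinase that blocks pyruvate dehydrogenase when fat is burned, had 1.22, 2.61, 1.18, 1.40 and 2.18 log2 CPM at ZT12, against 3.21, 4.58 and 5.11 at ZT0. All ZT12 libraries were lower (difference -2.66 ± 0.36, adjusted p = 5.17e-08). Plin2, which coats lipid droplets, fell by 1.16 ± 0.15. In batch 2 alone 2 genes of this list were higher and 4 lower, against 6 and 2 in batch 1 alone.

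Of the 24 cholesterol genes reported, 1 was higher at dusk and 6 lower, with a median of -0.14. The share that passed was 29.2%, against 32.7% over all genes. Hmgcs1, an early enzyme of the mevalonate pathway, had 7.36, 7.02, 7.58, 6.97 and 7.29 log2 CPM at ZT12, against 8.45, 8.80 and 9.33 at ZT0, a difference of -1.57 ± 0.21 (adjusted p = 5.42e-08) with groups that did not overlap. Insig2, an anchor that holds the sterol sensor in the endoplasmic reticulum, fell by 2.26 ± 0.14 (adjusted p = 6.78e-19) and Srebf2, the main sterol-responsive transcription factor, by 0.43 ± 0.10 (adjusted p = 0.00077). The higher gene was Stard4, which codes for a sterol carrier and is named outside the rule, after its values were seen. It had 7.22, 7.25, 7.68, 7.65 and 7.38 log2 CPM at ZT12, against 6.87, 7.09 and 7.40 at ZT0, so its groups overlapped. Its difference of 0.33 ± 0.13 was close to the threshold (adjusted p = 0.0495). It did not pass in the limma fit without a batch term (adjusted p = 0.0674) or with the removed factor in place of batch (adjusted p = 0.1). The call was lost as well without any 1 of J70N1, J70N2, T0N3, T0N5, T12N4 or T12N5 (adjusted p between 0.0636 and 0.17). Batch 1 alone called 3 lower genes of the list and batch 2 alone 4, and neither called a higher one. Without T12N1, 2 genes of the list were higher.

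Glucose and glycogen genes were mostly higher at dusk, 12 of 22 against 4 lower, with a median of 0.45. They passed in 72.7% of cases, against 32.7% over all genes. Gys2, liver glycogen synthase, had 8.42, 8.45, 8.77, 8.66 and 8.75 log2 CPM at ZT12, against 6.48, 6.70 and 6.96 at ZT0 (1.90 ± 0.12, adjusted p = 7.56e-18). Slc37a4, which carries glucose-6-phosphate to glucose-6-phosphatase, rose by 1.36 ± 0.10, Slc2a2, the liver glucose transporter, by 1.07 ± 0.11, and Pklr, liver pyruvate kinase, by 1.58 ± 0.18 (adjusted p = 4.24e-16, 3.09e-11 and 3.17e-10). Pck1, the gatekeeper of gluconeogenesis, had 11.00, 11.42, 11.31, 10.83 and 11.65 log2 CPM at ZT12, against 8.42, 9.49 and 10.12 at ZT0 (1.80 ± 0.33, adjusted p = 1.8e-05). Pfkfb3, which raises the glycolysis signal fructose-2,6-bisphosphate, rose by 3.06 ± 0.37 (adjusted p = 3.33e-09).

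Bile acid genes were divided, with 6 of 21 higher, 4 lower and a median of 0.11. The 47.6% called stands beside 32.7% over all genes (16% higher and 16.7% lower). Abcb11, the pump that exports bile salts into bile, had 8.85, 8.78, 8.86, 9.09 and 8.62 log2 CPM at ZT12, against 9.85, 10.14 and 10.32 at ZT0. It fell by 1.27 ± 0.10 (adjusted p = 1.15e-14), whereas Slc10a1, the uptake carrier on the blood side, rose by 0.46 ± 0.07 and Abcg5, a subunit of the sterol exporter, by 0.99 ± 0.14 (adjusted p = 1.23e-06 and 6.82e-08). Hsd3b7, an early enzyme of bile acid synthesis, fell by 1.52 ± 0.18. Cyp7a1, the rate-limiting enzyme, and Cyp8b1, which sets the share of cholic acid, are named outside the rule for named genes, after their values were seen. Cyp7a1 had 7.22, 9.18, 8.55, 8.81 and 8.88 log2 CPM at ZT12, against 6.49, 7.29 and 7.54 at ZT0, with 1 ZT12 library, T12N1, inside the ZT0 range (1.48 ± 0.34, adjusted p = 0.000544). Cyp8b1 fell by 0.85 ± 0.18 (adjusted p = 0.000134).

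Of the 22 drug metabolism genes measured, 9 were higher at dusk and 3 lower with a median of 0.18. Called genes made up 54.5% of the list, against 32.7% of all genes. The lower calls depended on the libraries: 1 was left with the removed factor as a covariate and without any 1 of J70N1, T0N2, T0N5, T12N1, T12N2, T12N5 or T12N6, and 0 without the 4 ZT0 libraries of that factor. Cyp2a5, a coumarin hydroxylase, rose by 2.71 ± 0.18, although its reads may be divided with a nearly identical neighbour, and Nr1i2, the xenobiotic receptor PXR, by 0.74 ± 0.11 (adjusted p = 4.18e-17 and 1.92e-07). Cyp2e1, the ethanol-oxidising P450 and an abundant transcript, had 12.74, 12.67, 12.87, 12.52 and 12.76 log2 CPM at ZT12, against 11.69, 11.88 and 12.28 at ZT0 (0.78 ± 0.11, adjusted p = 2.4e-07). Alas1, the first enzyme of haem synthesis, named outside the rule after its values were seen, rose by 2.90 ± 0.51 (adjusted p = 1.04e-05).

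Amino acid and urea genes changed in 20 of the 27 cases reported (74.1%, against 32.7% over all genes), 14 higher and 6 lower. Their median was 0.21. Asl, a urea cycle lyase, rose by 0.96 ± 0.11 (adjusted p = 4.59e-10). Cbs, which joins homocysteine to serine, had 8.27, 8.32, 8.23, 7.77 and 7.88 log2 CPM at ZT12, against 9.14, 9.22 and 9.49 at ZT0 (-1.17 ± 0.08, adjusted p = 3.58e-16), and Bhmt, an abundant methyltransferase, fell by 1.18 ± 0.19 (adjusted p = 1.53e-06). In batch 2 alone 8 genes of the list were higher and 6 lower.

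Other abundant transcripts, with a mean of at least 9 log2 CPM, differed in both directions. Higher at dusk were Fmo5, a flavin monooxygenase (1.19 ± 0.09), Errfi1, a feedback inhibitor of the EGF receptor (1.16 ± 0.26), Inmt, a methyltransferase (1.10 ± 0.14), Slc7a2, an arginine carrier (1.05 ± 0.19), Akr1c14, a steroid dehydrogenase (0.99 ± 0.12), and Igfbp4, an IGF-binding protein (0.80 ± 0.08). Hnf4a, a transcription factor that defines hepatocytes, rose by 0.44 ± 0.09. Lower were Crot, which moves acyl chains out of peroxisomes (-1.88 ± 0.11), Itih3, a chain of inter-alpha inhibitor (-0.57 ± 0.12), Serpinf2, the plasmin inhibitor (-0.62 ± 0.07), and the fibrinogen chains. Adjusted p-values ran from 2.33e-19 for Crot to 0.00042 for Errfi1.

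**Figure D3:**
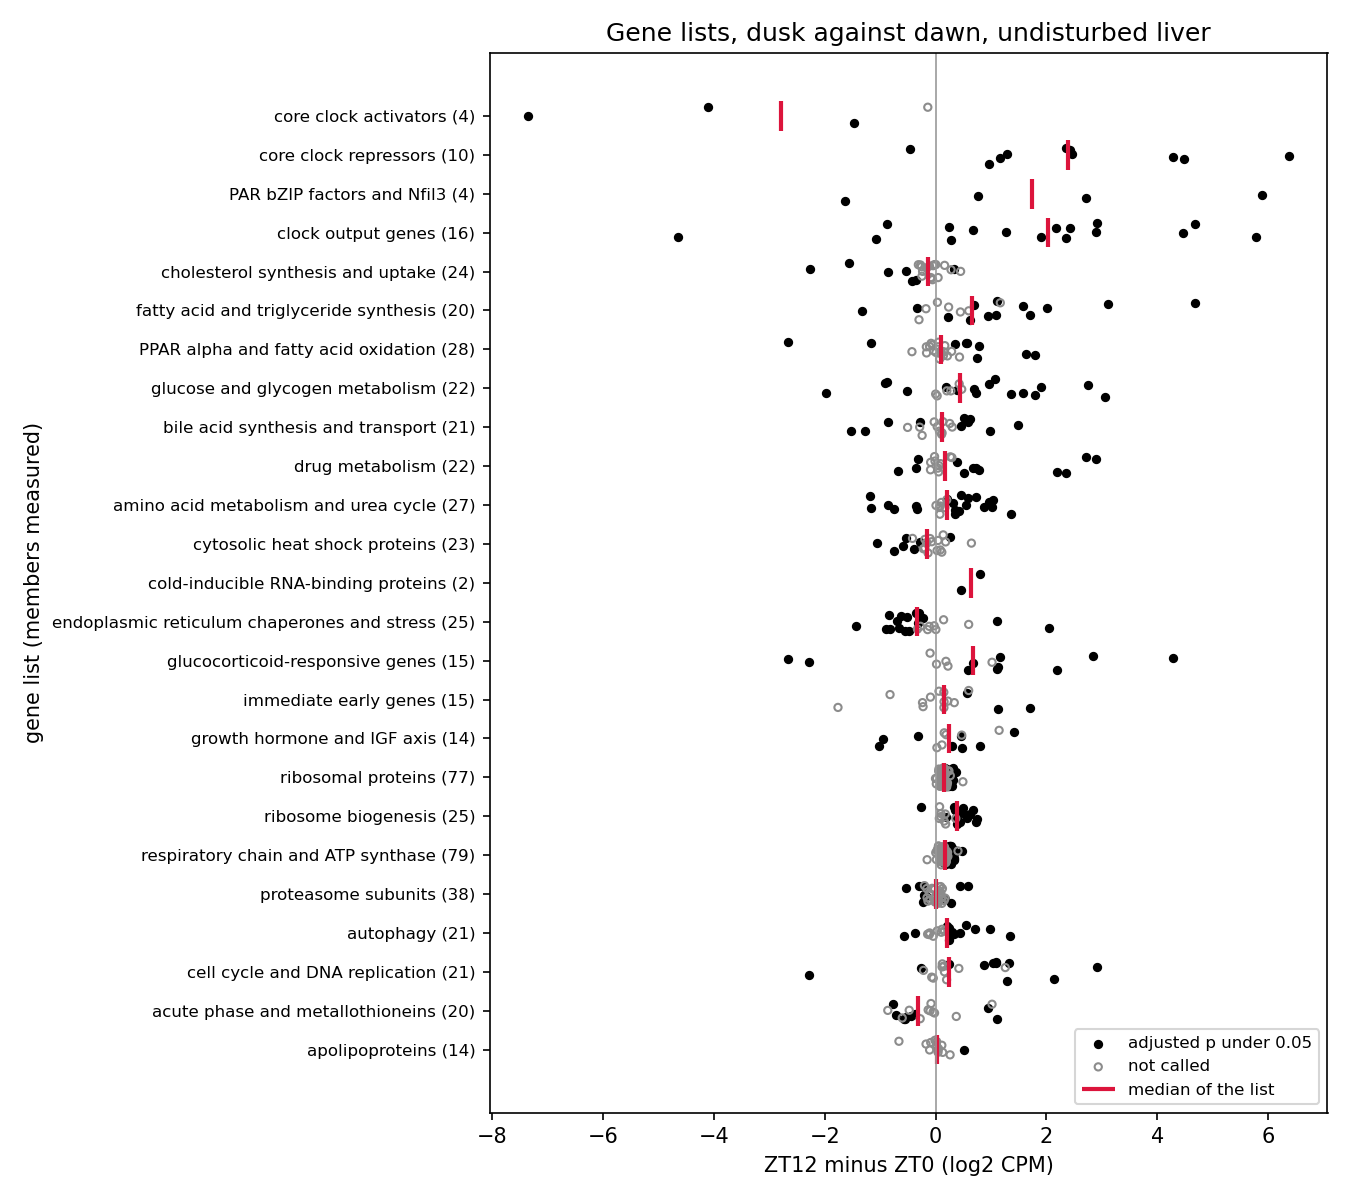
ZT12 minus ZT0 (log2 CPM) for each measured member of 25 gene lists. Filled points passed an adjusted p of 0.05, open points did not, and red bars are list medians. Clock repressors (median 2.40) and clock outputs (2.04) lie to the right, clock activators (-2.79) to the left, and ribosomal proteins within a narrow band at 0.16.

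Glucocorticoid-responsive genes were mostly higher at ZT12, 8 of the 15 measured against 2 lower, with a median of 0.68. The list passed at 66.7%, against 32.7% over all genes. Its members Per1, Tsc22d3, Pdk4, Dusp1 and Cdkn1a are counted in other lists here as well, and Per1 had its largest difference. Fkbp5, a cochaperone that dampens the glucocorticoid receptor (chr17:28399094-28517527), had 6.51, 6.61, 6.37, 7.03 and 7.86 log2 CPM at ZT12, against 3.80, 4.03 and 4.33 at ZT0. The groups were more than 2 log2 units apart, and the difference was 2.84 ± 0.20 (adjusted p = 7.22e-17). Zbtb16, another steroid-induced gene, rose by 2.20 ± 0.33, while Cdkn1a, the cell cycle inhibitor p21, fell by 2.29 ± 0.38 (adjusted p = 6.34e-07 and 3.27e-06). Without the ZT12 library T12N6, 5 genes of the list were higher. Of the 15 immediate early genes measured, 3 were higher and 0 lower (median 0.15), a share of 20% against 32.7% over all genes. The higher count was 1 without any 1 of T12N1, J70N1 or T0N1. Dusp1, a phosphatase that ends MAP kinase signals, had 5.09, 4.60, 4.96, 4.43 and 4.98 log2 CPM at ZT12, against 2.98, 3.81 and 4.23 at ZT0 (1.13 ± 0.27, adjusted p = 0.000689), with no overlap. Egr1, an immediate early transcription factor, ran from 0.96 to 4.35 log2 CPM at ZT12 and from 2.30 to 5.89 at ZT0 and did not pass the test (adjusted p = 0.0841).

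Of 25 genes of endoplasmic reticulum chaperones and stress, 15 were lower at ZT12 and 2 higher, with a median of -0.33. The calls took in 68% of the list, against 32.7% of all genes. Batch 1 alone gave 15 lower and 1 higher, batch 2 alone 2 lower and 4 higher. The difference between batches passed the interaction test for 0 of the 25 genes (limma, Benjamini-Hochberg over all genes). Without the 4 ZT0 libraries of the removed factor 6 were lower, and without the ZT12 library T12N4 the count of lower genes was 8. Pdia4, a disulfide isomerase, had 7.18, 7.11, 6.71, 7.51 and 7.28 log2 CPM at ZT12, against 7.80, 8.03 and 8.48 at ZT0, and was lower in every ZT12 library (-0.90 ± 0.14, adjusted p = 1.78e-06). Sdf2l1, a chaperone partner in the same compartment, fell by 1.44 ± 0.29 (adjusted p = 0.000104), while Herpud1, which helps clear misfolded proteins, rose by 1.11 ± 0.15 (adjusted p = 6.92e-08).

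Of 23 cytosolic heat shock genes, 6 were lower at ZT12 and 1 higher (median -0.16), and the share that passed was 30.4%, against 32.7% over all genes. Batch 1 alone gave 8 lower and 0 higher, and batch 2 alone 1 lower and 3 higher with a median of 0.09. With the removed factor as a covariate 4 were lower and 0 higher. Without T12N1 3 were lower and 2 higher, and with other single libraries left out 0 or 1 were higher. For 2 of the 23 genes the batches differed by the interaction test, Hsp90aa1 and Hsph1. Hsp90aa1, the inducible HSP90, had 6.61, 6.68 and 6.79 log2 CPM in the ZT12 mice of batch 1 and 7.94 and 7.59 in those of batch 2, against 7.51, 7.72 and 8.00 (lowest, median, highest) at ZT0. The ZT12 mice of batch 1 lay below all ZT0 mice and those of batch 2 among them. Over all mice the difference was -0.58 ± 0.19 (adjusted p = 0.0163), and the difference in batch 2 lay 1.19 ± 0.17 above that in batch 1 (adjusted p = 0.0144). The call over all mice was lost without T12N1 or T12N2 (adjusted p = 0.0707 and 0.059). Hsph1, an HSP110 chaperone named outside the rule after its values were seen, had 5.46, 5.35 and 5.64 log2 CPM in the ZT12 mice of batch 1 and 6.57 and 6.38 in those of batch 2, against 6.06, 6.25 and 6.78 at ZT0. It did not pass over all mice (-0.42 ± 0.21, adjusted p = 0.13), and without T12N5 it did (-0.61, adjusted p = 0.0337). Its difference in batch 2 lay 1.24 ± 0.19 above that in batch 1 (adjusted p = 0.0244). Of all genes, 13 (0.0975%) differed between the batches in this way. Hspb1, a small heat shock protein, fell by 1.05 ± 0.25 (adjusted p = 0.00071), and it stood at 5.31 log2 CPM at ZT18, above both dusk and dawn. Both listed cold-inducible RNA-binding genes were higher at ZT12, Rbm3 by 0.80 ± 0.13 and Cirbp by 0.46 ± 0.15 (adjusted p = 1.64e-06 and 0.0154), the second not without T12N1 (adjusted p = 0.068) and by 0.23 against the ZT0 mice labelled time 24 alone (adjusted p = 0.349).

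Lists of growth and energy production genes had small positive medians. Of 25 ribosome biogenesis genes, 16 were higher and 1 lower (median 0.38), with the smallest p for nucleolin, Ncl, which had 7.83, 7.89, 7.81, 8.03 and 8.03 log2 CPM at ZT12, against 7.21, 7.27 and 7.43 at ZT0 (0.63 ± 0.07, adjusted p = 2.64e-10). Of this list 68% passed, against 32.7% of all genes. Batch 1 alone gave 4 higher and batch 2 alone 17, and the higher count was 10 without T12N6. Of 77 ribosomal protein genes, 21 were higher and 0 lower (median 0.16). The share that passed was 27.3%, against 32.7% over all genes. Their summed CPM overlapped, from 9118 to 12172 at ZT12 and from 8340 to 9786 at ZT0. The higher count went to 13 with the removed factor as a covariate, to 0 in batch 1 alone and 23 in batch 2 alone, and to between 5 (without T12N6) and 37 (without T12N2) when single libraries were left out, with 7 without T12N1, 35 without T12N4 and 12 without T12N5 or the ZT0 library J70N1. Of 79 genes of the respiratory chain and ATP synthase, 27 were higher and 0 lower (median 0.18), a share of 34.2% beside 32.7% over all genes. The higher count was 16 without T12N1, 10 in batch 1 alone and 4 in batch 2 alone. Uqcrc1, a core subunit of complex III, rose by 0.32 ± 0.05 (adjusted p = 6.03e-06).

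Autophagy genes were higher in 11 of 21 cases and lower in 2 (median 0.21), although single batches gave 5 and 6 higher genes. Over both batches 61.9% of the list passed, against 32.7% of all genes. Bnip3, a receptor for mitochondrial autophagy, had 7.82, 7.76, 7.71, 7.64 and 7.99 log2 CPM at ZT12, against 6.27, 6.38 and 6.71 at ZT0 (1.34 ± 0.09, adjusted p = 1.73e-17), and Sqstm1, the cargo adaptor p62, fell by 0.57 ± 0.07 (adjusted p = 1.63e-09). Foxo3, which switches on autophagy genes, rose by 0.98 ± 0.09 (adjusted p = 4.76e-13). Of 38 proteasome subunits, 4 were higher and 7 lower with a median of 0.00, and the share that passed was 28.9%, against 32.7% over all genes. Without T12N1 2 were higher, and batch 1 alone gave 2 higher and 1 lower, batch 2 alone 3 and 3. Psmd11, a lid subunit, was tightly grouped, at 6.29 ± 0.04 log2 CPM at ZT12 and 6.82 ± 0.06 at ZT0 (SD, n = 5 and 8), a difference of -0.53 ± 0.05 (adjusted p = 1.62e-13). Of 21 cell cycle genes, 9 were higher and 2 lower (median 0.24), a share of 52.4% against 32.7% over all genes. Ccne1, cyclin E1, rose by 2.13 ± 0.31 and Mcm6, a subunit of the replicative helicase, by 1.04 ± 0.18 (adjusted p = 2.56e-07 and 9.34e-06), at low levels of 1.51 and 3.38 log2 CPM at ZT12.

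In the growth hormone and IGF axis, 5 of 14 measured genes were higher and 3 lower (median 0.25), and 3 were higher with the removed factor as a covariate and without any 1 of T12N1, T12N5, T12N6, T0N3, T0N8 or T0N9. In batch 1 alone 2 were higher and 2 lower, with a median of -0.04. Over all mice 57.1% of the list passed, against 32.7% of all genes. The transcription factors that carry the growth hormone signal were lower, with differences of -1.03 ± 0.13 for Stat5a and -0.96 ± 0.14 for Stat5b (adjusted p = 1.83e-08 and 1.35e-07), while the receptor gene Ghr rose by 0.30 ± 0.05 (adjusted p = 6.55e-06). Among 14 apolipoproteins 1 passed the test, a share of 7.14% against 32.7% over all genes. This was Apoa5, an activator of triglyceride clearance, which rose by 0.52 ± 0.14 (adjusted p = 0.0032).

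Of 20 acute phase and metallothionein genes, 7 were lower at dusk, 2 higher and 11 did not pass, with a median of -0.32. The 45% that passed stands beside 32.7% over all genes. Without the ZT0 library T0N3 the median was 0.05, with 6 lower and 3 higher. With the removed factor as a covariate 7 were lower and 1 higher, and leaving out other single libraries left between 1 and 3 higher. Summed CPM of the list ran from 16703 to 21228 at ZT12 and from 21782 to 47632 at ZT0. The highest sum belonged to T0N3, and the other 7 ZT0 libraries reached at most 26550. Fga, a fibrinogen chain, had 11.69, 11.62, 11.85, 11.81 and 11.71 log2 CPM at ZT12, against 12.13, 12.46 and 13.25 at ZT0 (-0.76 ± 0.11, adjusted p = 1.02e-07), and Fgg and Fgb fell with it, by 0.72 ± 0.10 and 0.53 ± 0.10 (adjusted p = 2e-07 and 7.07e-05). Saa4, a constitutive serum amyloid, rose by 0.95 ± 0.15 (adjusted p = 1.26e-06). Without the libraries T12N1 and T0N3, 6 genes were lower and 3 higher. Batch 2 alone gave 3 lower and 4 higher with a median of 0.25, and batch 1 alone 9 lower and 1 higher with a median of -0.54.

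Markers of the other liver cell types mostly did not pass the test. None of 8 endothelial, 8 Kupffer cell, 4 measured leukocyte and 5 erythroid markers did. All 8 Kupffer cell and all 4 leukocyte markers had negative differences (medians -0.25 and -0.56). All 5 erythroid markers had positive ones (median 0.08), and the endothelial markers were divided, 3 positive and 5 negative. Summed Kupffer cell markers ran from 103 to 343 CPM at ZT12 and from 223 to 417 at ZT0, and summed endothelial markers from 174 to 311 at ZT12 and from 182 to 347 at ZT0, with the lowest ZT12 sums in T12N1. Of 8 stellate cell and fibroblast markers, 3 were lower, Pdgfrb with a difference of -0.87 ± 0.14 (adjusted p = 1.72e-06), Col3a1 with -0.44 ± 0.15 (adjusted p = 0.0194) and Col1a1 with -0.54 ± 0.18 (adjusted p = 0.0144). Col3a1 was lost without T12N1 or T12N2 and Col1a1 without T12N2 or T12N4, which left 1 call without T12N2. The 3 calls of 8 are 37.5%, against 32.7% over all genes. Summed CPM of the 8 markers overlapped, from 221 to 414 at ZT12 and from 251 to 397 at ZT0. Of 5 measured cholangiocyte markers Sox9, which hepatocytes near the portal vein also use, was lower (-1.67 ± 0.23, adjusted p = 6.3e-08). That is 20% of this list, against 32.7% over all genes. Of 8 pancreatic acinar and 5 adipocyte markers only 1 each was measured, Cela2a and Fabp4, and neither passed. In a whole liver, fewer cells of a type and less RNA per cell cannot be told apart, and the part of cell composition in the other results was not tested.

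The other undisturbed times place dusk and dawn in the day. ZT3 (3 libraries), ZT6 (5) and ZT18 (5) were measured as well, and the mean at ZT12 was the highest of the 5 times for 217 of the 251 genes that were over 2-fold higher at dusk and the lowest for 285 of the 309 that were over 2-fold lower. ZT0 was the opposite extreme for fewer genes: it was the lowest time for 111 of the 251 and the highest for 143 of the 309, with ZT3 the lowest for 81 and ZT18 the highest for 80. Since the genes were chosen on ZT12 and ZT0, these shares describe the choice as well as the day. Dbp and Rgs16 had higher means at ZT6 (6.40 and 5.41 log2 CPM) than at ZT12 (5.38 and 5.14).

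**Figure D4:**
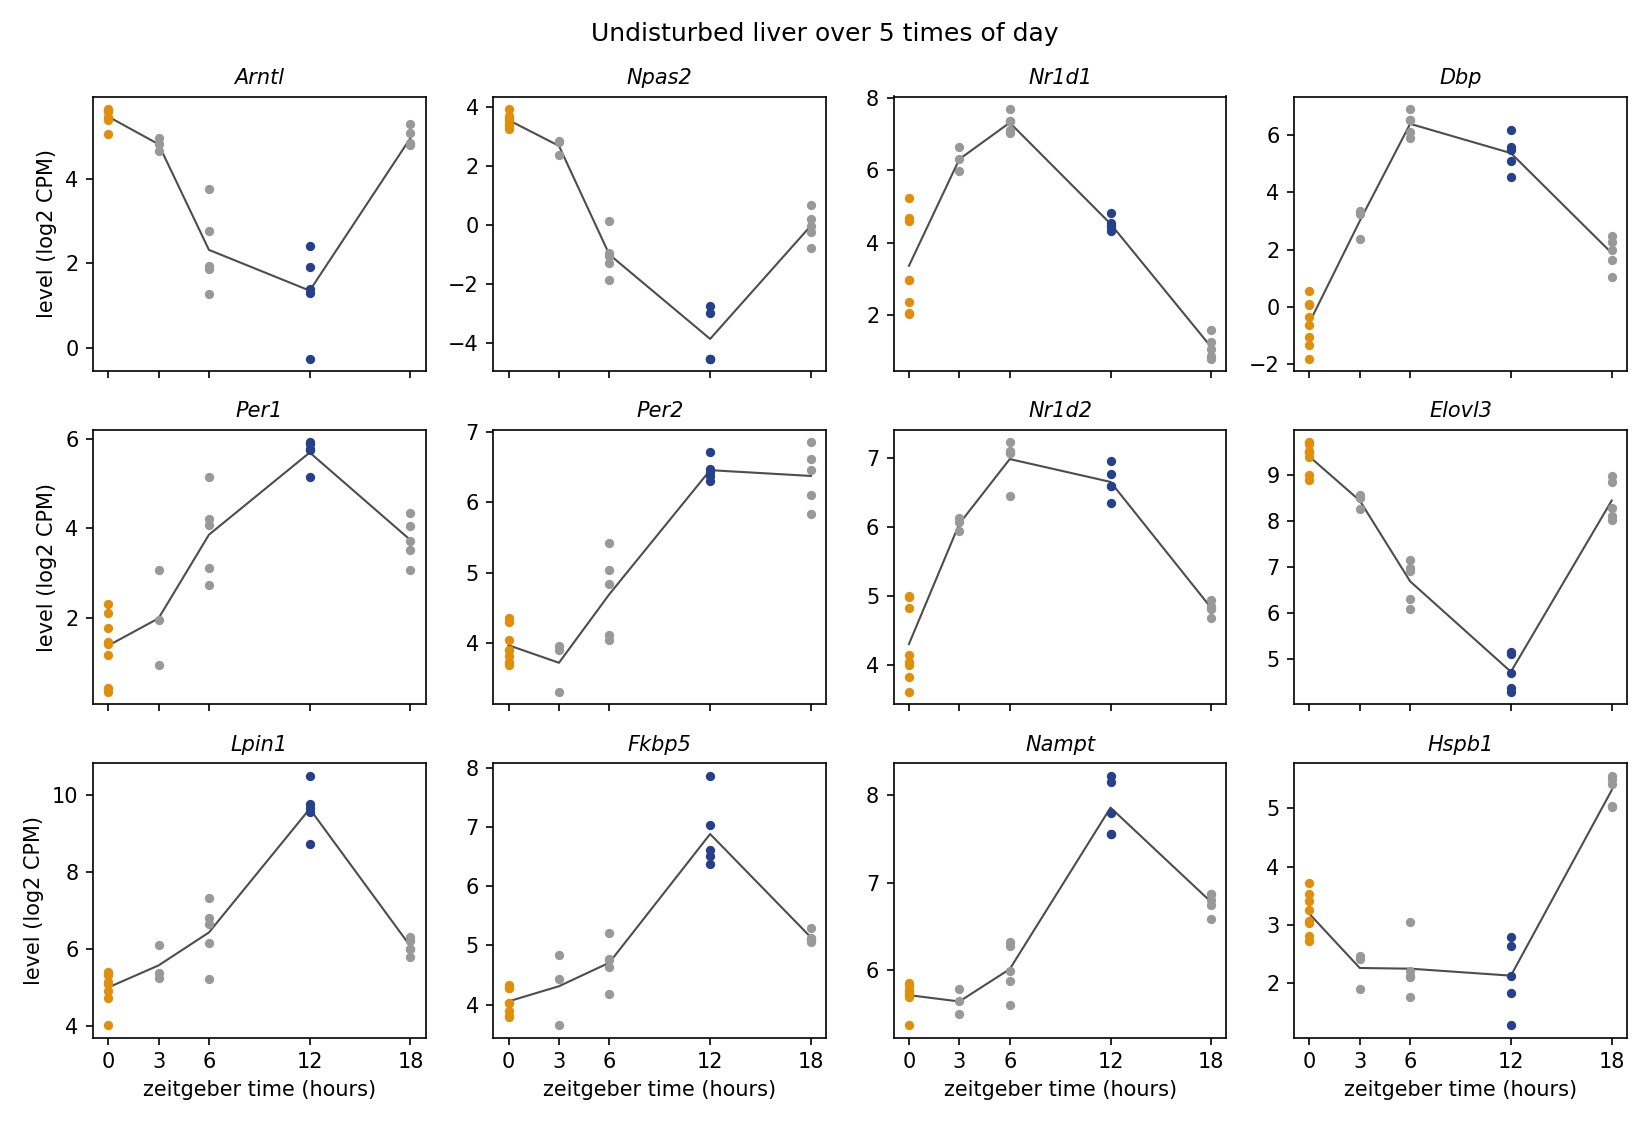
Levels (log2 CPM) of 12 genes against zeitgeber time (hours) in undisturbed liver. Points are libraries, blue at ZT12 and orange at ZT0, and lines join the means. Lpin1, Fkbp5 and Nampt are highest at ZT12, Elovl3, Arntl and Npas2 lowest there, and Nr1d1, Nr1d2 and Dbp highest at ZT6.

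Midnight against midday, ZT18 against ZT6 in 10 other libraries, gave 4129 calls (31%), about as many as dusk against dawn. Of the calls, 1734 were shared, which is 39.8% of the dusk-dawn calls and 42.0% of the midnight-midday calls. The shared genes were spread over all 4 combinations of direction, 378 higher at both ZT12 and ZT18, 460 higher at ZT12 and lower at ZT18, 578 lower at ZT12 and higher at ZT18, and 318 lower at both. The other 2627 dusk-dawn calls were not called between midnight and midday, although the difference between the contrasts was not tested. Por is an example, with 2.36 between dusk and dawn and -0.09 between midnight and midday (adjusted p = 0.62), and Usp2 another, with 4.47 and 0.11 (adjusted p = 0.84).

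The dusk-dawn difference was also measured in separate mice that had been sleep deprived for 6 h earlier in the experiment. They were killed at ZT12 at time 60 of the study's clock (3 libraries) and at ZT0 at time 192 (3 libraries), all in batch 2. This comparison called 2647 genes (19.8%). It shared 2216 with the undisturbed mice, 50.8% of the undisturbed calls and 83.7% of the others, and all 2216 had the same sign. Of the 560 genes over 2-fold in undisturbed mice, 551 had the same sign, 456 were called with the same sign (81.4%) and 0 with the opposite sign. Npas2 differed by -8.04, Arntl by -4.09, Dbp by 6.26 and Lpin1 by 4.83 in these mice, against -7.36, -4.10, 5.89 and 4.68 in undisturbed mice. Time since deprivation differs between the groups of these mice and cannot be told apart from time of day there.

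**Figure D5:**
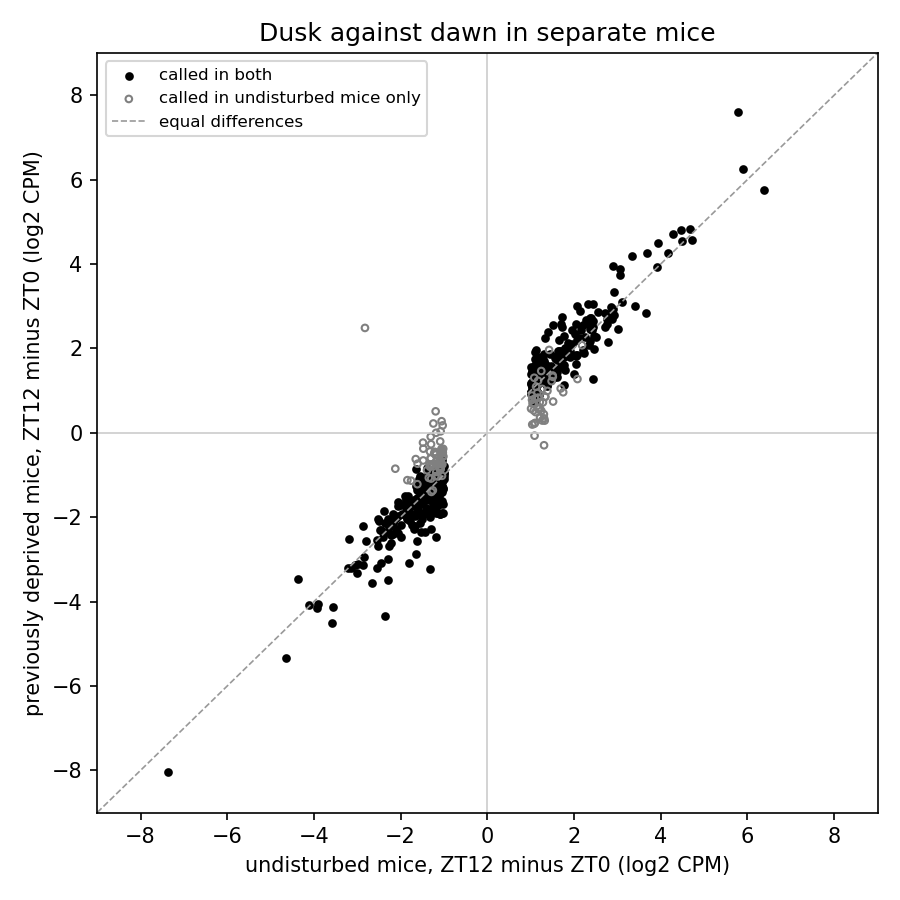
ZT12 minus ZT0 (log2 CPM) in previously deprived mice (vertical) against undisturbed mice (horizontal), for the 560 genes over 2-fold in undisturbed mice. Filled points, 456 genes, were called in both, open points in undisturbed mice only, and the dashed line marks equal differences. The filled points all have the same sign in both.

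Motif matches were counted per gene over promoter windows of the same length. A gene with several starts counted once, with a match if any of its windows held one. Of the 251 genes over 2-fold higher at dusk, 179 had a promoter in the RefSeq table, of the 309 lower 209, and of all genes tested 10099. Among genes with a promoter there, an E-box stood in 16.8% of the higher and 11.5% of the lower. The shares were 11.8% of all genes tested and 8.09% of all 27025 genes in the table. A ROR element stood in 1.12% of the higher and 4.78% of the lower, against 2.53% of all genes tested and 2.97% of the table. The D-box was in 3.91% and 2.39%, against 1.98% and 2.72%, and the cAMP response element (TGACGTCA) in 5.03% and 0.957%, against 3.5% and 2.03%. The heat shock element was in 0.559% and 0.957%, against 0.584% and 0.662%. These shares rest on 30 and 24 genes with an E-box, 2 and 10 with a ROR element and 9 and 2 with a cAMP response element, and no test was made of them. Neither Dbp nor Nr1d1, Usp2 or Npas2 held any of these letters in its 300-base window, which says nothing of sites elsewhere.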

How the data were processed

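RNA sequencing of whole liver from 13 mice was used, 5 killed at ZT12 and 8 at ZT0. The authors deposited 1 table of log2 CPM values (CPM scales counts to library size), in which 13373 entries were measured in 62 liver libraries. The 35 entries without a name hold 0.0337% of the signal and were left out, as was the cortex table. Per the labels' protocols, RNA was taken with the miRNeasy kit and stranded single-end libraries were sequenced on an Illumina instrument. The submitters' processing notes name fastp, STAR 2.7.0e, edgeR and the builds GRCm38 and mm10. No source used here says how reads shared between genes were counted. Depth per library is unknown, so no interval for counting error is given.

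From the values it was found that a 3-level factor without a label (50, 8 and 4 libraries) had been removed within groups. It takes up 2 dimensions that the fit does not know of.

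Differences (ZT12 minus ZT0) were fitted with limma 3.58.1 in R 4.3.3 on the values as deposited, with a trend of the variance on the mean, 17 groups, the label batch as an additive term and 44 residual degrees of freedom. Tests were two-sided, and p-values were adjusted after Benjamini-Hochberg over all 13338 genes, at a threshold of 0.05. No limit on fold or level was set. Every ± after a difference is the standard error. The fit was tested on simulated data for ZT12 against ZT0 (13338 genes): of 50 genes changed at each true size of 0.5, 1, 2 and 4 (log2), 33, 47, 49 and 50 were recovered, and 10 unchanged genes were called. The simulation changed 200 genes and used independent normal noise, whereas 4361 genes were called in the data. It checks the code, and its rates do not carry over to the data. The replicates are separate mice.

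Named genes are the 15 with the largest called difference in each direction among genes whose groups do not overlap and whose higher group has a mean of at least 1 log2 CPM, the 8 with the largest in each direction among genes with a mean of at least 9 log2 CPM, all clock genes and up to 4 members of each list by smallest p. A few list members are not reported here and were left out of the list counts. The genes and lists were chosen with earlier results of these data known. Gene positions come from GENCODE vM21 (GRCm38) and promoter sequences from RefSeq (GRCm38.p6). The alternatives tried were other covariates, sample sets, scalings, filters and offsets, single batches, single ZT0 time labels and leaving out each library. Leaving out the 4 ZT0 libraries of the removed factor, and leaving out T12N1 with T0N3, were added after seeing the data.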

Additional observations from a re-analysis of the deposited data

Results flagged for a closer look

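Of 228 groups of libraries examined (114 genes, ZT12 and ZT0), 22 held a library far from the others, and chance gives about 1 in 20. In 9 of these the library was the ZT0 library T0N3. It was the highest in Fga (13.25 log2 CPM, the others 12.13 to 12.60), Fgb (13.10, the others 12.08 to 12.33), Fgg (12.74, the others 11.77 to 12.06), Itih3 (11.27), Saa4 (8.84), Serpinf2 (10.05) and Bhlhe41 (-0.29), and the lowest in Nampt (5.37) and Clock (6.35). Most of these code for plasma proteins made by the liver. What sets T0N3 apart was not tested.

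Among ZT12 libraries, T12N2 was low in Alas1 (8.76, the others 10.12 to 10.62). T12N5 was low in Per1 (5.15), Mfsd2a (4.75) and Slc10a1 (9.19), T12N1 was high in Cirbp (4.75), and T12N4 was low in Cela2a (-3.13). Among the other ZT0 libraries, T0N9 was low in Arntl (5.08) and Cdkn1a (2.45), T0N1 low in Dgat2 (8.12) and high in Pfkfb3 (3.94), and T0N5 high in Cpt1a (8.47) and low in Mcm6 (1.94). T0N2 was high in Hsph1 (6.78, the others 6.06 to 6.39).

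The dusk-dawn difference of Hsp90aa1 was 1.19 higher in batch 2 than in batch 1 by a test of the interaction (limma, adjusted p = 0.0144), and that of Hsph1 1.24 higher (adjusted p = 0.0244).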

How the results depend on the processing

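The count of 4361 calls was 2560 in batch 1 alone and 2758 in batch 2 alone, where fewer mice enter. The count of 560 calls over 2-fold was 354 without the lowest 20% of genes and 321 on log2(CPM + 1), a scale that shrinks differences of low genes. The 13 genes with a difference between batches became 21 with the 26 undisturbed libraries alone and 21 without the lowest 20% of genes. Leaving out single libraries gave 3624 (without T12N6) to 4220 calls, and 538 to 586 over 2-fold. All other alternatives kept each of these counts within 1.5 times, among them 3789 and 546 with the removed factor as a covariate and 3387 and 593 without its 4 ZT0 libraries, and no gene was called with opposite signs. No paired analysis was possible because each mouse gave 1 liver library and was killed at 1 time.

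Of 114 named genes, 19 crossed the threshold or changed sign under at least 1 of 29 alternatives, in 78 of 3299 combinations, most often Stard4, Cry1 and Nr1d1. The difference of Hsp90aa1 was 0.093 in batch 2 alone (adjusted p = 0.788), and Alb was 0 under quantile normalisation, which sets the top gene of every library to 1 value. In batch 2 alone Hlf, Nfil3, Dusp1, Sdf2l1, Hspb1, Fgb, Itih3, Col1a1, Col3a1, Stard4 and Cirbp kept their direction and did not pass (adjusted p between 0.069 and 0.756), and in batch 1 alone Cyp7a1, Apoa5 and Stard4 did not (0.0603, 0.235 and 0.247). Cry1 passed in neither batch alone (0.072 in batch 1 and 0.445 in batch 2), nor did Alb (0.276 and 0.0718). Against the ZT0 mice labelled time 24 alone, Apoa5, Stard4, Hsp90aa1, Nr1d1, Cry1 and Cirbp did not pass (0.0586 to 0.349), and against those labelled time 0 alone Alb, Col1a1, Col3a1 and Stard4 did not (0.0834 to 0.181). With the 13 libraries alone Cry1, Nr1d1 and Alb did not pass (0.0892, 0.102 and 0.211), and with the 26 undisturbed libraries Alb and Cry1 did not (0.0507 and 0.0528). Hsph1 passed in batch 1 alone (0.0212). Egr1 passed with the 26 undisturbed libraries (adjusted p = 0.0472), with the 13 alone (0.0242), in batch 2 alone (0.0385) and with quality weights (0.0478). Depth is unknown, so the precision of low genes such as Npas2 at ZT12 cannot be given.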

Other observations

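The ZT0 libraries fell apart in the REV-ERB genes. In Nr1d1, T0N5, T0N8 and T0N9 stood at 4.61, 4.67 and 5.25 log2 CPM, and the other 5 ZT0 libraries between 2.03 and 2.97. The same 3 libraries were the highest of the 8 in Nr1d2 (4.82 to 4.99, the others 3.60 to 4.13) and in Dbp (0.08 to 0.55, the others -1.81 to -0.34). They come from both batches and both time labels of ZT0, and T0N5 and T0N9, but not T0N8, belong to the smaller levels of the removed factor. All 3 genes were several-fold higher at ZT3 than the mean at ZT0 (Nr1d1 6.31, Nr1d2 6.04 and Dbp 3.00 log2 CPM). They were singled out after their values were seen, and in Per1 and Per3 the 3 libraries did not stand together. In Per1, T0N5 was the highest ZT0 library (2.30) and T0N8 the lowest (0.35). In Per3, T0N9 was the highest (1.62) and T0N5 the lowest (0.90). What sets these mice apart was not tested.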
